A study of Mus musculus with 2 samples.

Results

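The genes described here encode carriers of sugars, lactate and amino acids. They are the protein-coding genes of the GENCODE M21 annotation whose symbol places them in the Slc1a, Slc2a, Slc3a, Slc7a, Slc16a or Slc38a family. The rule took 62 of 22028 protein-coding genes, or 62 of 55536 genes of any type, and used no measured value. A further gene with a matching symbol, Slc2a4rg-ps, is annotated as a transcribed unitary pseudogene and was not a member. Slc7a6os entered by its symbol alone: it is named for its position opposite Slc7a6 and is not a transporter.

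RNA was measured by polyA plus RNA-seq in regulatory T cells (Treg cells), a Foxp3-dependent kind of CD4 T cell that keeps other immune cells in check. The series holds 1 group of 2 libraries, technical replicates 1 and 2 of biological replicate 1. The mouse behind these primary cells was an adult male, 9 weeks old, of the strain written as Foxp3GFP-DTRCD4CreERT2R26tdTomato, and both libraries share every allele in that name. The labels name no treatment, tamoxifen for the CreERT2 included, and no control. Neither the way the cells were purified nor the step at which the replicates parted is stated, so p-values set the difference between these 2 libraries against counting error alone, except where an assumed spread is named.

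The libraries held 20891069 and 18571065 counts in genes (here and below, where a pair of values is given, technical replicate 1 comes first). All 8 markers of regulatory T cells were detected, meaning a level of at least 1 TPM (a unit of abundance that takes account of transcript length and sequencing depth) in both libraries. Foxp3 was the lowest of them, at 88.6 and 83.6 TPM. Of the 5 neutrophil markers none was detected and 4 were at 0 counts in both libraries. Summed levels were 196 and 231 TPM for 6 erythroid markers, 35.9 and 27.1 for 6 monocyte or macrophage markers, 55.1 and 51.4 for 5 B cell markers, and 95.5 and 76.0 for 4 natural killer cell markers, of which Nkg7 held 88.3 and 71.6. The markers of CD8 T cells summed to 26.2 and 23.4 TPM, of dendritic cells to 13.2 and 8.06, of platelets to 2.04 and 1.44, and of stromal, endothelial or epithelial cells to 1.53 and 3.33. Of the CD8 T cell sum Cd8b1 held 25.5 and 22.7 TPM, and Cd8a was not detected, at 0.71 and 0.66. Of the dendritic cell sum H2-Aa held 12.2 and 7.53 TPM. The part of such cells in the levels below was not tested. In bulk RNA, fewer cells of a type and less RNA per cell cannot be told apart.

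The Slc2a family are facilitative carriers of glucose and other hexoses, and the Slc16a family carry lactate, pyruvate and other monocarboxylates, some together with protons. Slc1a and Slc38a proteins take up amino acids, most with sodium, whereas Slc7a light chains mostly exchange one amino acid for another and need a heavy chain of the Slc3a family to reach the membrane. In activated T cells glucose uptake through Slc2a1 and uptake of glutamine and leucine through Slc1a5 and the Slc3a2 and Slc7a5 pair are known to feed growth and mTORC1 signalling.

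Of the 62 members, 25 were detected (40.3%, against 47.5% of all protein-coding genes). Of the 37 others, 10 had 0 counts in both libraries and 27 had at least 1 count in one of them. Their highest level in any library was 0.9 TPM (Slc16a4 in technical replicate 1), and the lowest level of a detected member was 1.08 TPM (Slc7a7 in technical replicate 2), so no member was at 1 TPM or more in only 1 library. For the members at 0, 3 counts, the 95% upper limit of a count of 0, corresponded to between 0.0531 and 0.126 TPM for technical replicate 1, and between 0.0626 and 0.148 for the other library. These limits cover counting error only and were set on the longest annotated transcript of each gene, so a shorter transcript would give a higher limit. The upper credibility bounds deposited for the same members reached from 0.092 to 1.38 TPM (Slc2a4). The detected members had a median of 16.03 TPM, below the 25.5 TPM of all detected protein-coding genes.

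By family, 6 of 11 Slc38a, 5 of 12 Slc2a, 7 of 16 Slc7a, 5 of 14 Slc16a, 1 of 2 Slc3a and 1 of 7 Slc1a genes were detected. The Slc38a family held the most RNA, with a summed level of 340 and 352 TPM. It was followed by Slc2a with 160 and 171, Slc7a with 106 and 131, and Slc3a with 73.0 and 120.03. The Slc16a family held 63.2 and 67.7 TPM, and Slc1a 46.9 and 89.7. Slc1a thus stood last in technical replicate 1 and above Slc16a in technical replicate 2. All members together summed to 789 and 931 TPM.

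By substrate, 2 of 3 system A carriers (sodium-coupled uptake of small neutral amino acids), 5 of 11 hexose carriers, 2 of 4 carriers of lactate, pyruvate and ketone bodies, 4 of 10 light chains and 2 of 5 cationic amino acid carriers were detected. These classes are coarse: the hexose class holds Slc2a9, a urate carrier, and the cationic class Slc7a4, which has no established transport activity. Slc16a6, a ketone body exporter in liver, was placed with other or little-known Slc16a substrates. None was detected of the 5 carriers of acidic amino acids (glutamate and aspartate), of the 2 system N carriers (glutamine, asparagine and histidine), of the 2 carriers of thyroid hormone and aromatic amino acids, or of the myo-inositol carrier Slc2a13. The 5 acidic amino acid carriers summed to 0.65 and 0.33 TPM, with Slc1a2 (GLT-1, a glutamate carrier of brain) at 0.26 and 0.16 from 3 and 1 counts. This absence rests on the TPM: by the deposited posterior mean TPM, Slc1a2 stood at 2.40 and 2.70 and the system N carrier Slc38a3, with 0 and 1 counts, at 1.04 and 1.22, so both would be detected, and the 5 acidic amino acid carriers summed to 3.85 and 4.16.

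**Figure D1:**
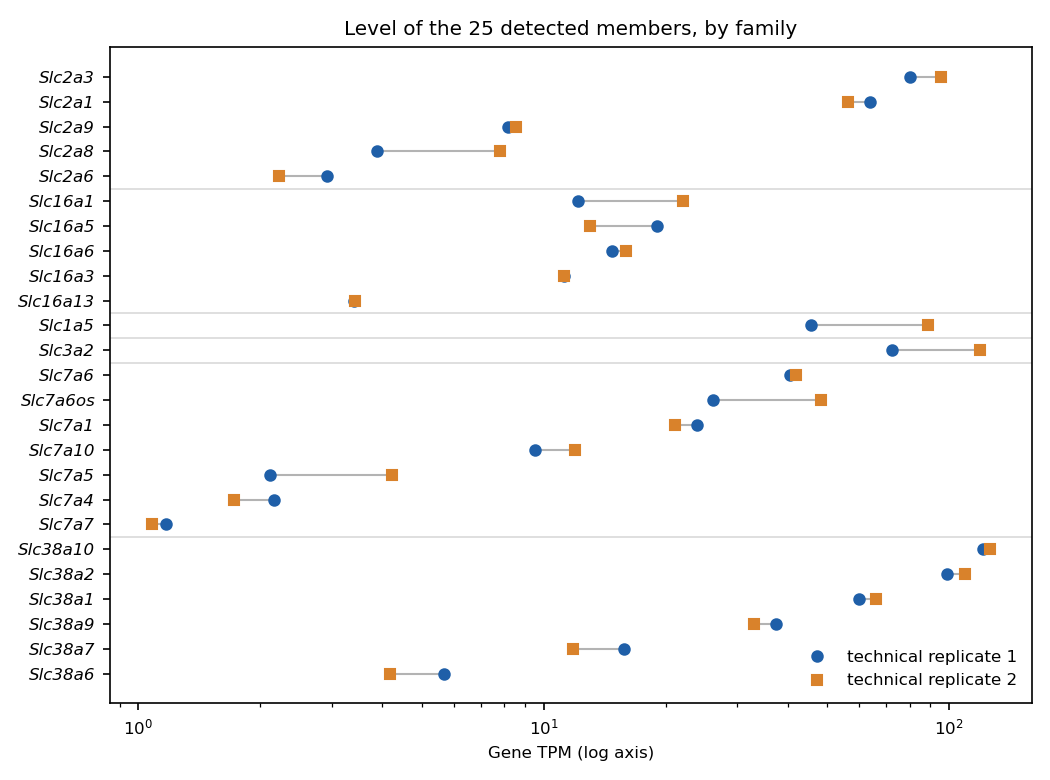
Gene TPM on a log axis of the 25 detected members, grouped by family and ordered by mean level within each; circles are technical replicate 1 and squares technical replicate 2. Levels run from 1.08 TPM (Slc7a7) to 126 TPM (Slc38a10), and the widest gaps between the libraries are at Slc1a5, Slc7a5 and Slc2a8.

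The plot of levels by family shows how few members carried each family. Among hexose carriers, Slc2a3 (GLUT3, a high-affinity glucose carrier) stood at 80.3 and 95.55 TPM. Slc2a1 (GLUT1, the widespread glucose carrier) stood at 64.0 and 56.5 TPM. Slc2a3 was the higher of the pair in both libraries, by 1.25-fold and 1.69-fold, and together they held 90.4% and 89.0% of the family's TPM. Slc2a9, a urate carrier, had 8.16 and 8.53 TPM, Slc2a8, an intracellular hexose carrier, 3.88 and 7.79, and Slc2a6, also found on lysosomes, 2.93 and 2.22. Slc2a4, the insulin-responsive carrier of muscle and fat, had 0 counts in both libraries, and the other undetected members had at most 5.48 counts in a library.

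The gene level of Slc2a1 did not rest mainly on its full-length coding transcript. Here and below, a complete coding transcript is one annotated as protein-coding without a missing start or end, however short its coding sequence. An incomplete one is annotated as protein-coding with a missing start or end. The transcript tables gave 43.1 and 36.4 TPM to Slc2a1-204, annotated as a target of nonsense-mediated decay, and 19.9 and 20.1 TPM to the complete coding Slc2a1-201. These are 67.4% and 64.45% of the gene for Slc2a1-204, against 31.1% and 35.55% for Slc2a1-201. The 95% credibility bounds of Slc2a1-204, which belong to the posterior mean TPM and need not hold the TPM itself, were 34.9 to 42.1 and 28.2 to 35.96, above those of Slc2a1-201 at 15.45 to 20.2 and 15.002 to 20.2. The lead of Slc2a1-204 thus held in both libraries.

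The annotated coding sequence of Slc2a1-204 is 519 bases against 1476 in Slc2a1-201. Slc2a1-204 is also annotated to start 203 bases later and to end 653 bases earlier. The deposited levels do not say which of the differences between the models drew the reads to Slc2a1-204.

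Among monocarboxylate carriers, Slc16a1 (MCT1, which carries lactate and pyruvate with protons) stood at 12.2 and 22.15 TPM. Slc16a3 (MCT4, a carrier known for lactate export) stood at 11.2 TPM in both. The ratio of Slc16a1 to Slc16a3 was 1.08 and 1.98. Slc16a5, known mainly as a carrier of drugs, had 19.05 and 13.0 TPM, and Slc16a6, a ketone body exporter in liver, 14.8 and 15.95. The order within the family therefore differed: Slc16a5 was highest in technical replicate 1 and Slc16a1 in technical replicate 2. Slc16a13 was detected at 3.4 and 3.43 TPM.

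The chaperones that bring the lactate carriers to the membrane were all detected. Bsg (basigin, the usual partner of Slc16a1 and Slc16a3) stood at 149.76 and 235 TPM, Emb (embigin) at 138 and 120.26, and Nptn (neuroplastin) at 62.5 and 51.4. Bsg was higher in technical replicate 2 (log2 ratio 0.64 ± 0.04, counting SE; adjusted p = 1.24e-63 in the exact binomial test described with the comparison of the libraries) and Emb and Nptn were lower (-0.19 ± 0.03, adjusted p = 1.53e-09, and -0.18 ± 0.06, adjusted p = 0.00593, same test).

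For glutamine and other neutral amino acids, Slc1a5 (ASCT2) stood at 45.6 and 88.9 TPM. Its relative Slc1a4 (ASCT1) was not detected, at 0.61 and 0.46 TPM with 33 and 21 counts. Slc1a5 was the only detected gene of its family, and technical replicate 2 was clearly the higher library for it.

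The leading transcript of Slc1a5 in both libraries keeps an intron. Slc1a5-202 had 22.4 and 57.4 TPM, which is 49.03% and 64.6% of the gene. The complete coding Slc1a5-201 had 12.55 and 19.4 TPM. Credibility bounds of the 2 libraries did not overlap for Slc1a5-202, at 15.8 to 25.9 and 43.8 to 59.9, and did overlap for Slc1a5-201, at 5.59 to 15.8 and 6.80 to 23.2. Transcripts annotated with a retained intron together held 70.8% and 76.4% of the gene's TPM.

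Slc1a5 lies on the plus strand of chromosome 7 (mm10, 16781340 to 16798274). The kept intron is intron 7 of Slc1a5-201, at chr7:16795953-16796023, and its 71 bases are no multiple of 3 (remainder 2). Slc1a5-202 otherwise differs from Slc1a5-201 only in starting 28 bases later, so the intron is nearly all that tells these 2 transcripts apart. The intron is shown in capitals between 15 bases of exon on each side, followed by the same exon bases as spliced.
Slc1a5-202: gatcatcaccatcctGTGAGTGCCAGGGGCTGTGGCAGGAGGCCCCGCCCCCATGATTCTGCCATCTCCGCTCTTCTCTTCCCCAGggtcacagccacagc
Slc1a5-201: gatcatcaccatcctggtcacagccacagc

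Slc3a2 (CD98hc, or 4F2hc), the heavy chain that escorts several light chains, stood at 72.3 and 119 TPM. The other heavy chain, Slc3a1 (rBAT, of kidney and gut), stayed below 1 TPM at 0.7 and 0.59. Of the 10 light chains the detected ones were Slc7a6 (y+LAT2) at 40.5 and 41.9 TPM, Slc7a10 (Asc-1, small neutral amino acids) at 9.52 and 11.96, Slc7a5 (LAT1, large neutral amino acids) at 2.12 and 4.22, and Slc7a7 (y+LAT1) at 1.17 and 1.08. By posterior mean TPM Slc7a7 stood at 2.24 and 2.70, with the libraries in the other order. Slc7a5 was named after its values were seen.

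Slc7a6 therefore held 75.6% and 70.6% of the summed light chain level of 53.55 and 59.4 TPM. By gene TPM it exceeded Slc7a5 19.1-fold and 9.94-fold. Only 27.9% and 25.9% of the Slc7a6 level lay in complete coding transcripts, at 11.3 and 10.8 TPM. Slc7a5, at 2.12 and 4.22 TPM, was all complete coding, so the gap was smaller on such transcripts alone. Slc3a2 exceeded all its light chains together 1.35-fold and 2.01-fold. Slc7a11 (xCT, which imports cystine) had 3 and 0 counts, and Slc7a8 (LAT2) had 11 and 7.

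Slc7a1 (CAT-1, the widespread arginine and lysine carrier) stood at 23.9 and 21.1 TPM. Its relatives Slc7a2 and Slc7a3 were not detected, while Slc7a4, which has no established transport activity, had 2.16 and 1.72 TPM (3.07 and 2.81 by posterior mean). Slc7a6os stood at 26.2 and 48.3 TPM. It lies on the minus strand and its gene model is separated by 2010 bases from that of Slc7a6 on the plus strand of chromosome 8, so the gene models share no bases.

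In the Slc38a family, Slc38a10, a broadly expressed carrier of which little is known, was the highest member of all by gene TPM, at 121 and 126. This rank depends on the transcripts counted. Complete coding transcripts of Slc38a10 held 70.8 and 66.7 TPM, below the 89.2 and 99.7 TPM of those of Slc38a2. Incomplete coding models held a further 10.2% and 15.4% of the Slc38a10 level. Slc38a2 (SNAT2) and Slc38a1 (SNAT1), the detected carriers of system A, stood at 99.1 and 109.84 and at 59.9 and 66.1 TPM. The 2 system A genes held 46.8% and 50.0% of the family's TPM, and Slc38a10 held 35.7% and 35.95%. Slc38a9, which senses arginine at the lysosome for mTORC1, had 37.5 and 33.1 TPM, and Slc38a7, which releases glutamine from the lysosome, 15.8 and 11.8. Slc38a6 had 5.69 and 4.19 TPM, and Slc38a4, the third system A gene, had 0 counts in both libraries.

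Over the 25 detected members, the transcript with the highest share of the gene was the same in both libraries for 21 (84%, against 87.1% of 10472 detected protein-coding genes). For 18 members it was a complete coding transcript in both libraries (72%, against 79.0%), and for 5 it was not in either (20%, against 15.2%). Beside Slc2a1 and Slc1a5 these 5 were Slc7a6, Slc7a1 and Slc38a9. Complete coding transcripts held a median of 75.8% and 74.3% of a detected member's TPM, against 79.3% and 79.8% over detected protein-coding genes. These shares describe few genes and were not tested.

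**Figure D2:**
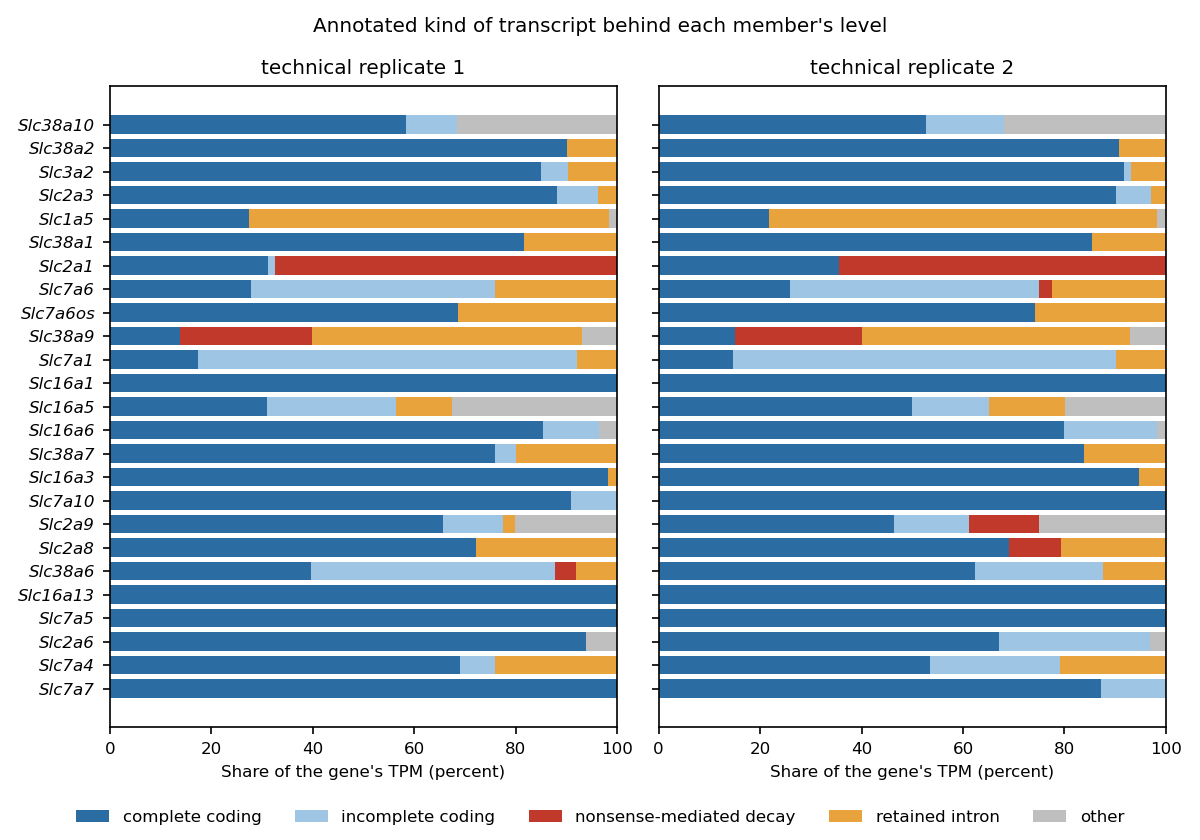
Share of each detected member's TPM, in percent, by annotated kind of transcript, in technical replicate 1 (left) and technical replicate 2 (right); members are ordered by mean level. Slc2a1 is mostly nonsense-mediated decay (67.4% and 64.4%), Slc1a5 mostly retained intron (70.8% and 76.4%) and Slc7a1 mostly incomplete coding (74.6% and 75.3%). In Slc7a6 incomplete coding models are the largest kind (48.0% and 49.2%).

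The plot of transcript kinds shows the complete coding share within 10 percentage points between the libraries for 19 of 25 members and further apart for 6, by up to 26.7 points in Slc2a6. For Slc38a9, complete coding transcripts held 13.9% and 15.05% of TPM, and the leading transcript, Slc38a9-202, is a short nonsense-mediated decay model of 681 bases with 9.7 and 8.31 TPM. Since TPM divides by length, short models weigh more in it than in counts: by count Slc38a9-201, of 8910 bases, led with 651 and 529 expected counts against 86.5 and 62.85. For Slc7a6 likewise the incomplete model Slc7a6-205, of 616 bases, led by TPM (16.4 and 20.6) and Slc7a6-201, of 3750 bases, by count (590 and 480 against 132 and 139.99). Slc7a1-202, an incomplete model, had 16.7 and 13.5 TPM against 4.17 and 3.11 for the complete Slc7a1-201. By count the 2 were close, at 410 and 282 for Slc7a1-202 against 420 and 265 for Slc7a1-201. For Slc2a1 and Slc1a5 the decay and retained intron transcripts led by count as well. The leading transcript by count was complete coding in both libraries for 21 of 25 members, against 18 by TPM.

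The leading transcript differed between libraries for Slc16a5, Slc38a6, Slc7a4 and Slc7a7. For Slc16a5 the noncoding Slc16a5-204 led technical replicate 1 with 32.5% of the gene. The complete coding Slc16a5-202 led technical replicate 2 with 50.0%, but its credibility bounds overlapped, at 2.15 to 9.78 and 3.13 to 7.98. The annotated coding sequence of Slc16a5-202 is 447 bases, against 1404 in the incomplete Slc16a5-201. Slc7a7 was given wholly to Slc7a7-202 in technical replicate 1 (33.3 counts). That transcript stood at 0 in technical replicate 2, where Slc7a7-209 led with 16.1 counts. These bounds too overlapped, so neither switch exceeded the estimates' own error. Of 94 transcripts that held at least 5% of a detected member in either library, 14 had bounds that did not overlap between the libraries. In Slc38a1, chosen after its values were seen, these went both ways: the complete coding Slc38a1-202 stood at 7.23 and 0.24 TPM, with bounds of 2.81 to 9.22 and 8.03e-06 to 2.75, and Slc38a1-201 at 20.3 and 32.05 TPM, with bounds of 15.4 to 22.0 and 25.4 to 29.4.

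The comparison between the libraries asked which members differed by more than counting error. Each gene with at least 10 counts over both was tested by a two-sided exact binomial test on rounded expected counts, with Benjamini-Hochberg adjustment over 16553 genes and a threshold of 0.05. Log2 ratios are of counts, technical replicate 2 over 1, with the counting error as SE. Of 33 members tested, 19 passed, 11 higher and 8 lower in technical replicate 2, and 14 did not pass. Over all genes tested 34.7% passed, 21.6% higher and 13.0% lower. Among protein-coding genes tested 41.0% passed, and among genes with at least 100 counts 48.1%. The median size of the log2 ratio, sign left aside, was 0.37 over the members tested and 0.24 over all genes. The members tested include 8 under 1 TPM. Over the 25 detected members the median was 0.25, and over protein-coding genes tested 0.21. The 29 members not tested had under 10 counts, and all 25 detected members were tested.

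**Figure D3:**
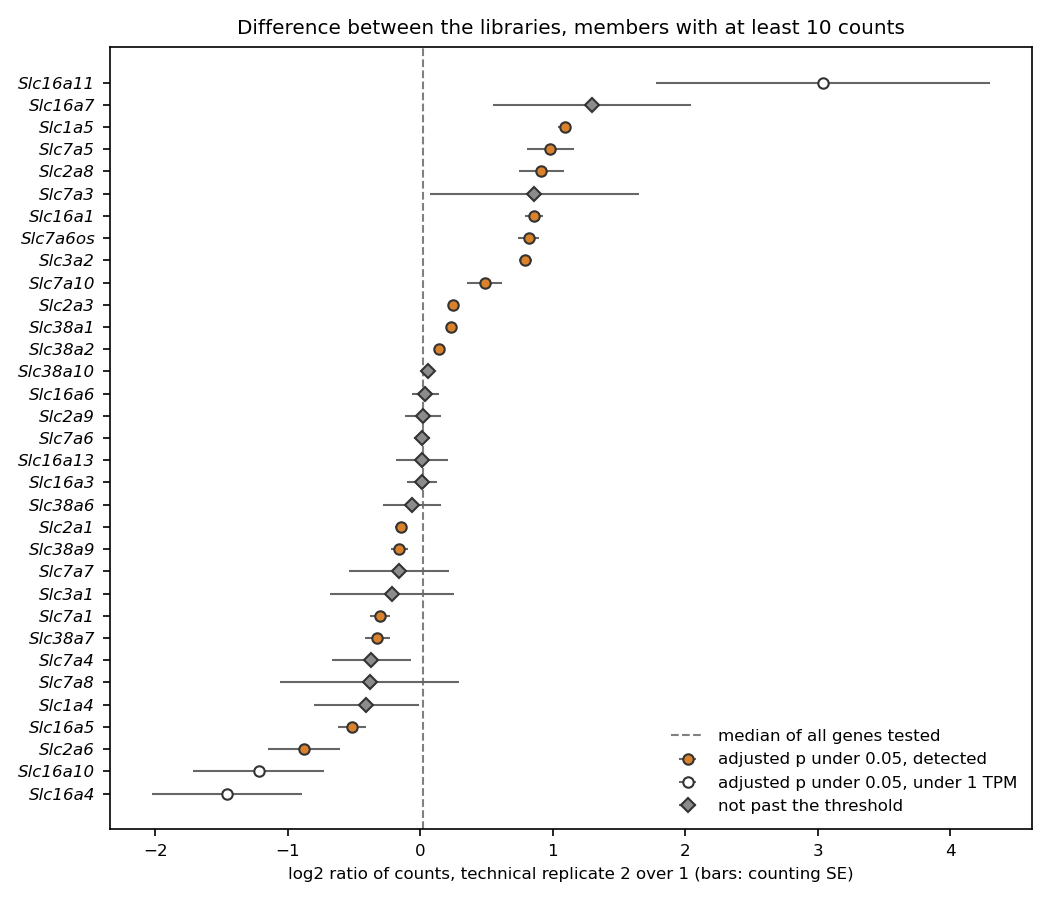
Log2 ratio of counts, technical replicate 2 over 1, of the 33 members with at least 10 counts, with bars of 1 counting SE; filled circles passed the exact binomial test and are detected, open circles passed at under 1 TPM and diamonds did not pass. A group of 6 detected members, from Slc3a2 at 0.79 to Slc1a5 at 1.09, lies apart above the other detected members.

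The plot of log2 ratios shows 6 detected members at 0.79 or more. Slc1a5 had 1445 and 2615 expected counts (log2 ratio 1.09 ± 0.05, adjusted p = 4.25e-121, exact binomial test), the only detected member that passed and differed at least 2-fold. Of all 33 members tested 4 did, the other 3 under 1 TPM, against 6.46% of all genes tested. Slc3a2 had 1537 and 2266 counts (0.79 ± 0.05, adjusted p = 7.70e-62, same exact test). Slc16a1 had 752 and 1160 counts (0.86 ± 0.07, adjusted p = 1.67e-36, same exact test). Slc7a6os had 531 and 796 counts (0.82 ± 0.08, adjusted p = 2.42e-23, same exact test). The others were Slc7a5, with 104 and 175 counts (0.98 ± 0.18), and Slc2a8, with 116 and 186 (0.91 ± 0.17). Slc7a6, the partner that shares the heavy chain with Slc7a5, had 1152 and 989 counts (0.01 ± 0.06, adjusted p = 0.928, same exact test) and did not pass.

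These 6 also passed with a spread between libraries assumed beyond counting error. With edgeR's exactTest at a dispersion of 0.01, which stands for a 10% coefficient of variation, 6 members passed, all higher in technical replicate 2, with adjusted p from 1.97e-05 (Slc1a5) to 0.00894 (Slc2a8), against 10.8% of all genes (9.29% higher and 1.49% lower). At a dispersion of 0.04, a 20% coefficient of variation, no member passed and 0.707% of all genes did (0.35% higher and 0.356% lower). Which spread applies to these libraries was not tested.

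The other members that were higher in technical replicate 2 moved less. Slc7a10 had a log2 ratio of 0.49 ± 0.13, Slc2a3 of 0.25 ± 0.03, Slc38a1 of 0.23 ± 0.03 and Slc38a2 of 0.14 ± 0.03. Lower in technical replicate 2 were Slc2a6 (-0.88 ± 0.27), Slc16a5 (-0.52 ± 0.11), Slc38a7 (-0.32 ± 0.09), Slc7a1 (-0.31 ± 0.08), Slc38a9 (-0.16 ± 0.06) and Slc2a1 (-0.15 ± 0.05). Both main glucose carriers thus passed in opposite directions, each by under 1.25-fold. The remaining 3 that passed lay under 1 TPM: Slc16a4 (27 and 8 counts), Slc16a10 (31 and 11) and Slc16a11 (1 and 10). Among those that did not pass were Slc38a10 (0.06 ± 0.03, adjusted p = 0.101, exact test), Slc16a3 (0.01 ± 0.11) and Slc16a6 (0.04 ± 0.10).

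GC content moved with the ratio over all genes: over 20 equal bins of transcript GC content, the median log2 ratio ran from -0.30 in the lowest bin to 0.33 in the highest. Among members, transcript GC had a median of 54.7% in those higher in technical replicate 2, 53.9% in those lower and 52.6% in those that did not pass. With the GC trend removed the log2 ratio was 0.99 for Slc1a5, 0.72 for Slc3a2, 0.97 for Slc16a1, 0.79 for Slc7a6os and 0.89 for Slc7a5. That of Slc2a8, one of the most GC-rich members, was 0.58 with an adjusted p of 0.00237 in the exact test. Slc38a10 turned from 0.06 to -0.09 and passed (adjusted p = 0.0144, exact test). With the trend removed 20 members passed, against 33.9% of all genes.

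Scaling, filter and table moved the members' count less than the assumed spread did. The same 19 members passed, 11 higher and 8 lower, with DESeq2 size factors, against 36.6% of all genes (19.8% higher, 16.8% lower), and with total counts, against 38.9% (18.7% higher, 20.3% lower). With posterior mean counts 19 members passed, against 33.2%, without a count filter 17, against 19.2%, and with at least 100 counts 16 of 23, against 48.1%.

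A second gene table per library, made on the older GENCODE M4 annotation, held whole-number counts for all 62 members. Its counts of the 25 detected members were between 24.5% (Slc38a2, 1596 and 1568 counts against 6655 and 6238) and 89.7% (Slc7a10, 200 and 242 against 225 and 268) of the newer expected counts, with a median of 52.2%, against 46.9% over 10351 genes. The percentage was higher for members whose transcripts are annotated as coding over more of their length. Across the 25 members Spearman's rho was 0.868 and Pearson's r 0.823, and across the 10351 genes 0.574 and 0.457. These describe genes of the same libraries, which are not independent replicates.

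**Figure D4:**
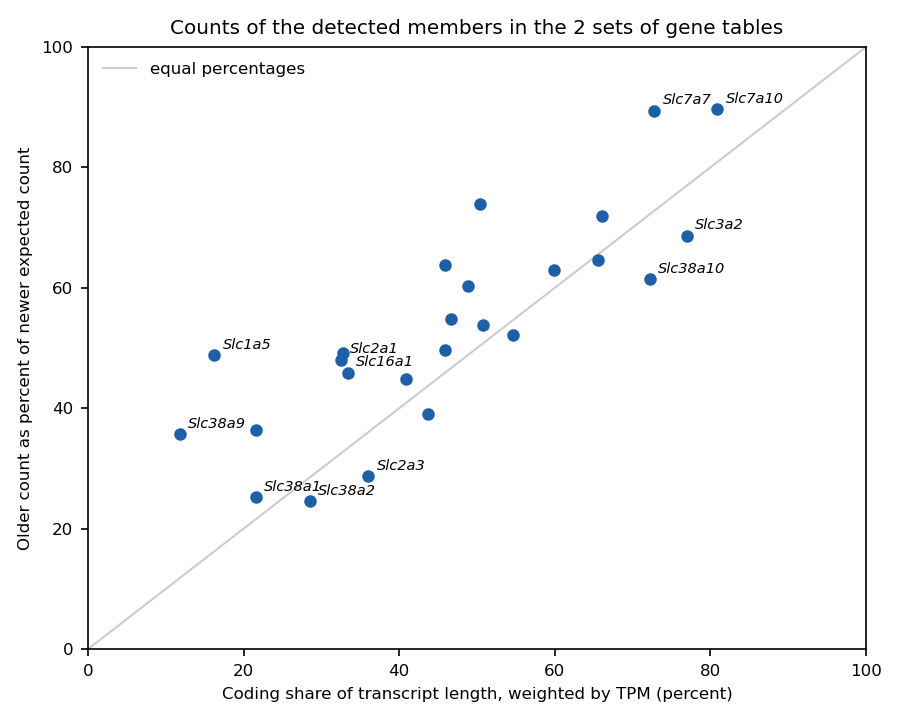
Older count as a percent of the newer expected count, both libraries summed, against the coding share of transcript length weighted by TPM, for the 25 detected members; the line marks equal percentages. Slc38a2 (24.5%) and Slc38a1 (25.2%) lie low at left and Slc7a10 (89.7%) and Slc7a7 (89.4%) high at right.

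As the plot of older against newer counts shows, members with a lower annotated coding share tended to have a smaller part of their counts in the older table. Slc38a9 and Slc1a5 departed from this order. Their coding shares, 11.8% and 16.2%, were below the 28.5% of Slc38a2, yet 35.8% and 48.9% of their counts were in the older table. Models with a retained intron have no annotated coding sequence, so the coding share takes them as wholly noncoding. They held 53.2% and 52.8% of Slc38a9 TPM and 70.8% and 76.4% of Slc1a5 TPM. Their part in the departure was not tested. The order of members by count depends on the table: Slc38a2 led the newer table, and Slc38a10, with 3051 and 2765 older counts, led the older one. Of 29 members tested on older counts, 12 passed, 8 higher and 4 lower, against 27.1% of all genes (19.3% higher, 7.75% lower). Slc1a5 (736 and 1248 older counts, log2 ratio 0.87), Slc3a2 (1100 and 1512, 0.57) and Slc16a1 (324 and 554, 0.89) were higher in technical replicate 2 in the older table too. Slc3a1, under 1 TPM, was counted higher in the older table (73 and 60) than in the newer one (21.9 and 15.8), and 26.5% of its exon bases are shared with Prepl on the other strand. Of the detected members 8 share exon bases with another gene, over 10% of them in Slc16a6 (21.5%, with Amz2), Slc7a10 (17.9%, with Lrp3) and Slc7a4 (13.3%, with P2rx6, at 0 counts). Whether counting used strand is not given in those sources that were used here, so reads of these pairs may not be told apart.

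The genes that control or use these carriers were read from lists, of which the 3 highest members are named. All 11 genes that control display of glucose carriers were detected, 3 higher and 2 lower in technical replicate 2. Here and in the next lists the share over all genes tested was again 34.7%, 21.6% higher and 13.0% lower. It was 41.0% over protein-coding genes tested and 48.1% over genes with at least 100 counts. Whether any list exceeded these shares was not tested. Txnip, which promotes internalisation of glucose carriers, had 1121 and 992 TPM (log2 ratio -0.23 ± 0.01, adjusted p = 1.11e-89, exact binomial test). Vps29 and Vps35, of the retromer that returns carriers to the surface, had 127 and 122.55 TPM and 97.1 and 87.1 TPM. Vps35 was lower in technical replicate 2, at -0.16 ± 0.03, and Vps29 did not pass, at -0.07 ± 0.05.

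Of 18 genes that first act on the carried substrates 14 were detected, and of 16 tested 3 were higher and 2 lower (31.25%, near the 34.7% of all genes). Ldha (lactate dehydrogenase A) had 1040 and 1042 TPM, Hk1 (hexokinase 1) 138 and 140.02, and Mpc1 (mitochondrial pyruvate carrier) 151 and 135. Ldha and Hk1 did not pass (log2 ratios 0.00 ± 0.01 and 0.00 ± 0.03), while Mpc1 was lower at -0.21 ± 0.05.

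Of 27 listed genes of amino acid sensing at the lysosome 26 were matched by symbol and 25 detected, and 11 were higher and 3 lower (53.8% of 26, against 34.7% of all genes). Lamtor5 and Lamtor2, of the Ragulator complex that anchors mTORC1, had 201.75 and 179.7 TPM and 183 and 170.45 TPM. Lamtor5 was lower (-0.17 ± 0.05) and Lamtor2 did not pass (-0.07 ± 0.06). Sesn1 (a sestrin, which holds back mTORC1) had 116 and 194 TPM and was higher (0.74 ± 0.03, adjusted p = 1.87e-149, exact binomial test).

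Of 14 genes of the amino acid response 10 were detected and tested, 3 higher and 2 lower (50% of them, against 34.7%). Phgdh and Psph, enzymes of serine synthesis, had 136 and 141 TPM and 60.2 and 59.2 TPM and did not pass (0.03 ± 0.04 and -0.02 ± 0.07). Atf4, the transcription factor of the response, had 102 and 94.3 TPM and was lower (-0.12 ± 0.04, adjusted p = 0.0202, exact binomial test). Of 12 transcription factors tied to nutrient carrier genes 9 were detected. Of 10 tested 5 were higher and 3 lower (80%, against 34.7% of all genes and 41.0% of protein-coding genes). Myc had 170 and 185 TPM and did not pass (0.06 ± 0.03), Max, its partner, had 157 and 132 and was lower (-0.24 ± 0.04), and Hif1a had 62.3 and 111 and was higher (0.78 ± 0.03, adjusted p = 5.85e-142, exact binomial test).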

How the data were processed

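Per the text files the authors deposited beside the tables, the newer gene and transcript tables used build mm10 with GENCODE M21 and the older gene tables GENCODE M4. Aligner and quantifier are not given in those sources that were used here. The authors deposited expected counts, TPM, FPKM, percent of each gene per transcript, and credibility bounds with posterior means (a signal on the TPM scale). The older whole-number counts were deposited without a named tool. Rows naming no gene (0.307% and 0.242% of counts) stayed out. Expected counts were rounded for tests. The planned exact binomial test used edgeR 4.0.16 TMM sizes (factors 1.02 and 0.978), with 0.5 added for log2 ratios, because edgeR's quasi-likelihood test leaves no residual degrees of freedom. Alternatives used DESeq2 1.42.0, other filters, tables and spreads. The printed sequences were read from the GENCODE M21 transcripts (1 further sequence is not reported here). Named genes were members with a mean of at least 10 TPM, the 3 highest of each family, detected members passing at 2-fold or with a differing leading transcript, and the 3 highest of each pathway list. Members and lists were chosen with earlier results of these data known.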

Additional observations from a re-analysis of the deposited data

How the results depend on the processing

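The 25 members detected became 26 at a TPM of 0.5, 18 at 5 and 27 by posterior mean TPM (with Slc1a2 and Slc38a3), and were 25 in each library alone. The summed level, on average 860 TPM, ranged from 789 to 931 between single libraries. The 19 members that passed were 19 with DESeq2 size factors, total counts or posterior mean counts, with the same 11 higher and 8 lower under the first 2, although the share of calls higher over all genes was 62.4%, 54.1% and 47.9% with TMM, DESeq2 size factors and total counts. They were 17 without a count filter, 16 with at least 100 counts and 20 with the GC trend removed, a setting chosen after seeing the data. They fell to 6 (6 higher, 0 lower) at an assumed dispersion of 0.01, to 0 (0 higher, 0 lower) at 0.04, and to 12 (8 higher, 4 lower) in the older tables, which hold fewer counts. The exact binomial test, which assumes no such spread, gave an unadjusted p under 0.05 for 20 members and an adjusted p under 0.05 for 19. For edgeR's exactTest at 0.04 no unadjusted count was made, so the part of the adjustment in its 0 was not tested. Slc38a10 reversed to -0.086 with the GC trend removed. Of 23 named members tested, those losing their call were 9 at 0.01, 13 at 0.04, 4 in the older tables (Slc2a1, Slc38a1, Slc38a2 and Slc38a9) and 1 (Slc38a9) without a filter. The same leading transcript held for 19 of 25 by posterior mean and 17 of 18 at 5 TPM, against 21 of 25. No paired analysis was possible because there was 1 group, and leaving out a library leaves no comparison.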

Other observations

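Carriers of related substrates outside the 6 families were read after the results were seen. Of 46 protein-coding genes of the Slc5a, Slc6a, Slc15a, Slc36a and Slc43a families 11 were detected. Slc43a2, a carrier of large neutral amino acids that needs no heavy chain, stood at 41.3 and 45.1 TPM, at the level of Slc7a6 and above Slc7a5. Slc6a6, the taurine carrier, had 949 and 1369 expected counts (log2 ratio 0.76 ± 0.06, adjusted p = 4.23e-35, exact binomial test) but 19.8 and 52.4 TPM, so its level moved more than its counts. Slc15a2, a carrier of small peptides, had 17.1 and 10.2 TPM and was lower in technical replicate 2 (-0.94 ± 0.12, adjusted p = 8.13e-16, same exact test). Slc36a4, a carrier of proline and tryptophan, had 9.21 and 12.3 TPM and was higher (0.48 ± 0.08, adjusted p = 6.20e-09, same exact test), and Slc5a6, the vitamin carrier, had 9.92 and 13.0 TPM and did not pass.

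The pseudogene Slc2a4rg-ps had 20.6 and 18.09 TPM with 836 and 627 counts.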
